A study of Mus musculus with 2 samples.

Results

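The cell cycle genes described here are 46 genes of the mammalian cell division cycle, chosen by name and not by their counts, of which 45 were listed among the 15474 genes counted in single cells of the murine dentate gyrus (DG). They comprise 8 G1 cyclins and Cdks, 4 Cdk inhibitors, 12 S genes, 20 G2/M genes, and the chromatin genes Hmgb2 and H2afz, and the member that was not listed is Cdk6. The study asked whether DG cells can be fixed in methanol (MeOH) and stored before single cell RNA sequencing. DGs of C57BL/6J mice aged 4 to 5 weeks were dissociated, and cells were either sorted freshly, from a pool of 3 mice, or fixed in MeOH, stored for 3 weeks and rehydrated before sorting, from a pool of 4 mice. Each pool was sorted into 1 plate with 384 barcodes, in which some wells were left empty as a control. Sequencing was by SORT-seq, in which unique molecular identifiers (UMIs) at the 3′ ends of transcripts are counted per well. A dead cell stain was used only for the fresh cells. After the filter of the authors 64 fresh and 132 MeOH-fixed cells remained, with 534122 and 729018 UMIs. Because each condition is 1 library of 1 pool, no test was possible, and intervals given below cover counting error only. Fixation, the pool of mice, the plate and the dead cell stain cannot be told apart.

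Progress through the cell cycle is driven by cyclins, which activate cyclin-dependent kinases (Cdks). D cyclins with Cdk4 or Cdk6 act in G1 and E cyclins with Cdk2 at the entry into S phase, and Cdk inhibitors of the Cip/Kip and Ink4 families hold these kinases in check. Genes for DNA replication are transcribed towards S phase, and genes for the mitotic kinases, the kinetochore and the spindle in G2 and M. In the adult DG, radial glia-like cells (RGLs) give rise to neural intermediate progenitor cells (nIPCs), which divide and produce neuroblasts, so that dividing cells of the neuronal lineage are found mainly among nIPCs and early neuroblasts, and oligodendrocyte progenitor cells (OPCs) divide as well. Cells of 8 identities were given by the authors from clusters of all genes, with Ccnd2 among the genes used to name the nIPCs and neuroblasts, so that differences between identities are descriptions.

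The promoters of 5 members are shown because S and G2/M genes are known to be controlled through different promoter elements and the members of both groups were found together in few cells. Sequences are those of RefSeq on GRCm38.p6 and are given 5′ to 3′ for 300 bases around the start of transcription. Capitals mark the cell cycle homology element TTTGAA, the CCAAT box, and the E2F-type sites TTTGGCGC, TTTCCCGC, TTTGCCGC and TTTCGCGC, on either strand, with overlapping matches joined. Cenpf, Cdc20 and Kif11 stand for the kinetochore, the anaphase-promoting complex and the spindle, and Mcm6 and Mcm3 for the replicative helicase.
Cenpf promoter, chr1:189688037-189688336, minus strand: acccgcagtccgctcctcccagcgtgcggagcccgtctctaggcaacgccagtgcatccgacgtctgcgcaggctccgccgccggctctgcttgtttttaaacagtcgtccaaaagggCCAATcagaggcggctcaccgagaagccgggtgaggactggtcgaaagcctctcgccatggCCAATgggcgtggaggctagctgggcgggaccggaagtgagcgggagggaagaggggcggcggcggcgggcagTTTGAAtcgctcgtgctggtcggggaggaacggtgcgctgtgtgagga
Cdc20 promoter, chr4:118437294-118437593, minus strand: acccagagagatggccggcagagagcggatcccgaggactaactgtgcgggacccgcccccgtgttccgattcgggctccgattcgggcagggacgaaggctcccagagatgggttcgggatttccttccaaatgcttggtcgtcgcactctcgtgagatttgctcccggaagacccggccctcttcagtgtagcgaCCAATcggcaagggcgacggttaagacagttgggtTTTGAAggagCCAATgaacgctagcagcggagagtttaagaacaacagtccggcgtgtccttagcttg
Kif11 promoter, chr19:37376132-37376431, plus strand: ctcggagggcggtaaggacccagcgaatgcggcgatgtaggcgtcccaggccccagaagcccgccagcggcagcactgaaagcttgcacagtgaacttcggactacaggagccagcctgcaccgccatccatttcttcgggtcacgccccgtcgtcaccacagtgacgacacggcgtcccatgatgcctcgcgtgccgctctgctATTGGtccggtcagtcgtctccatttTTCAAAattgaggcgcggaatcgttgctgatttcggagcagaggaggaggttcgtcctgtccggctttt
Mcm6 promoter, chr1:128359656-128359955, minus strand: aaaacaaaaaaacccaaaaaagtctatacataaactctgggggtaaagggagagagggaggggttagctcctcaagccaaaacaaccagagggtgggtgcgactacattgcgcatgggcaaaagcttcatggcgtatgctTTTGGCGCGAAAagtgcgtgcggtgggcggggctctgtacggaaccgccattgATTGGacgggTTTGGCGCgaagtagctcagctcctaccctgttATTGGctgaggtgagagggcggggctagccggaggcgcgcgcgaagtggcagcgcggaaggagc
Mcm3 promoter, chr1:20820263-20820562, minus strand: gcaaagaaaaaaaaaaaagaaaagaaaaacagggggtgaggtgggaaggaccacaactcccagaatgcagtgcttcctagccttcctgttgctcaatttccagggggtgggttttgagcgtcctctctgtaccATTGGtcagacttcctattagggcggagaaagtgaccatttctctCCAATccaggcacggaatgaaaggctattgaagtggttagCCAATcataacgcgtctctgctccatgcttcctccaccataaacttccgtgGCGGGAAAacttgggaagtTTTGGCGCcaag
TTTGAA was present in the promoters of 13 of 17 G2/M genes (76.5%), 1 of 10 S genes, and none of 5 G1 cyclins and Cdks or 3 Cdk inhibitors with an entry. Among 11309 genes of the counts with an entry it was present in 14.7%, and among all 32851 promoters in 17.9%. E2F-type sites were present in 5 of 10 S genes and in 1 of 17 G2/M genes, against 4.29% of the genes of the counts and 2.26% of all promoters. CCAAT was found in 16 of 17 G2/M genes and 8 of 10 S genes, against 42.4% of the genes of the counts and 37.4% of all promoters. In all, 36 members had an entry, and these matches describe the letters only.

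The fresh library held 638 UMIs of members, 0.119% of its total, and the MeOH-fixed library 1173 UMIs, or 0.161%, and most members were counted in few cells. Fresh cells ranged from 971 to 31563 UMIs with a median of 6318, and MeOH-fixed cells from 1000 to 34333 with a median of 3451.5. Levels are therefore given as CPM, that is UMIs of a gene scaled to a common total of UMIs, over the summed cells, which are not divided by transcript length. In the fresh library 3 UMIs, the limit that a count of 0 allows, correspond to 5.62 CPM, and in the MeOH-fixed library to 4.12 CPM. Identities differed in depth, from a median of 2046.5 UMIs in MeOH-fixed endothelial cells to 28791 UMIs in the 5 fresh immature neurons. Wells of the same barcode number held a filtered cell on both plates in 24 cases. In GENCODE vM21, 10 members overlap a gene that was also counted, among them Ccnd2, Cdk4, Mcm7, Ccna2, Cdc20 and Ube2c, and whether strand was used in counting is not given in the sources used here. Pseudogenes named for Ccnd3, Pcna, Tyms, Ccnb1 and Ccnb2 exist, and reads with more than one equally good position had been discarded, so that the counts of these genes are uncertain.

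G2/M transcripts were 5.39-fold higher in MeOH-fixed than in fresh cells as a summed level, and this difference rested on 3 cells. The 20 G2/M genes together gave 69.3 CPM in fresh cells (95% Poisson interval 48.8–95.5, 37 UMIs) and 373 CPM in MeOH-fixed cells (330.1–420.2, 272 UMIs), with an interval of the ratio from 3.81 to 7.81. Of the 272 UMIs, 229 (84.2%) came from 3 cells. Without these cells the MeOH-fixed library gave 61.0 CPM (44.2–82.2, 43 UMIs), which is 0.881 times the fresh level (0.554–1.41). The 12 S genes gave 277 CPM (234–326, 148 UMIs) in fresh and 346 CPM (304–391, 252 UMIs) in MeOH-fixed cells, a ratio of 1.25 (1.01–1.54), which turned to a log2 ratio of -0.28 for mean UMIs per cell and of -0.16 per spike-in count. With the 3 cells left out, which held 83 of these UMIs, the S genes gave 239.8 CPM (205–279) in MeOH-fixed cells, a ratio of 0.866 (0.690–1.09). Hmgb2 and H2afz, which code for a DNA-binding protein and a histone variant and are abundant in dividing cells, together gave 245 CPM (205–291) and 401 CPM (356–449), and 289.5 CPM (251–332) without the 3 cells.

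G1 cyclins and Cdks together gave 376 CPM (326–432, 201 UMIs) in fresh and 321 CPM (281–365, 234 UMIs) in MeOH-fixed cells, and 244 CPM (209–283) without the 3 cells. Without Cdk4, which held the most UMIs of this group, the log2 ratio turned from -0.23 to 0.22. The Cdk inhibitors gave 227 CPM (188–271, 121 UMIs) and 169 CPM (140.2–201, 123 UMIs), a ratio of 0.745 (0.575–0.965), and 160.4 CPM (132–193) without the 3 cells. Both groups hence lay at or below the fresh level in MeOH-fixed cells, whereas S and G2/M genes lay above it only with the 3 cells included. The 3 cells were picked by their S and G2/M genes, so that leaving them out had to lower these sums. The contrast between the groups is therefore a description.

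**Figure D1:**
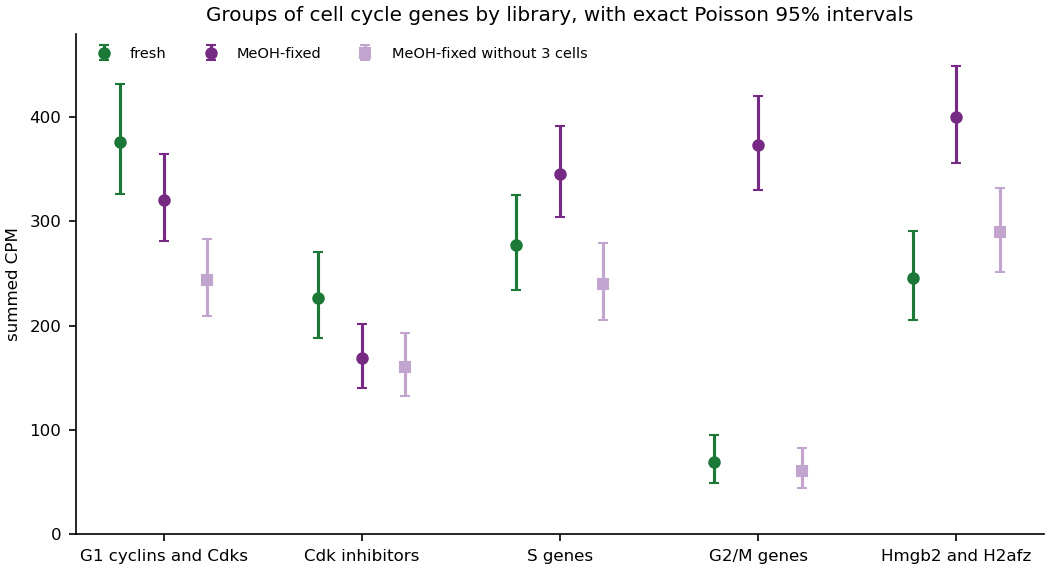
Summed CPM (y axis) of the 5 groups of cell cycle genes (x axis) in 64 fresh cells, 132 MeOH-fixed cells, and the MeOH-fixed cells without the 3 cells with more than 20 S or G2/M genes; points are sums over cells and bars exact Poisson 95% intervals. G2/M genes stand at 69.3 and 373 CPM with all cells and at 61.0 CPM in MeOH-fixed cells without the 3 cells.

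Of 45 listed members, 17 reached 20 UMIs over both libraries. Among these, Ccnd2, Mki67, Ccnb1, Cenpf, Tpx2 and Hmgb2 were at least 2-fold higher in MeOH-fixed cells, 6 of 17 against 10.6% of all 8804 genes with as many UMIs. Of the 6, all but Ccnd2 had at most 8 UMIs in fresh cells and thus reached 20 UMIs only through the MeOH-fixed cells where they were high, as Cdkn1a did through the fresh cells, so that these counts describe the genes that passed and support nothing. Ccnd1, Cdkn1a and Tyms were at least 2-fold lower, 3 of 17 against 9% of all genes. When the 3 cells were left out, 11 members reached 20 UMIs, of which 0 were 2-fold higher (11% of all genes) and Ccnd1, Cdk4, Cdkn1a and Tyms were 2-fold lower (4 of 11, against 9.15% of all genes). By intervals that did not overlap, 7 members were higher in MeOH-fixed cells, those 6 and H2afz (10.9% of all genes), and Ccnd1, Cdk4 and Cdkn1a, 3 members, were lower (7.54% of all genes). The median log2 ratio of all genes was 0.09 and that of the 17 members 0.12, or 0.26 with the 2 genes at 0 in fresh cells set to 3 counts.

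Among the D cyclins, Ccnd1 was counted in 4 fresh and 6 MeOH-fixed identities and Ccnd2 in 5 and 5, with different levels across identities. Both were counted in a MeOH-fixed immature neuron of 34333 UMIs, with 3 UMIs of Ccnd1 and 4 of Ccnd2. Ccnd1 (chr7:144929931-144939925, minus strand) gave 42 UMIs in 15 fresh cells and 27 UMIs in 12 MeOH-fixed cells. That is 78.6 and 37.0 CPM, with a ratio of 0.471 (0.279–0.782). OPCs held 27 of the fresh UMIs, in 4 of 5 cells, and 8 of the MeOH-fixed UMIs, in 5 of 10 cells. The level in OPCs was 536 CPM (353–780) in fresh and 172 CPM (74.1–338) in MeOH-fixed cells, so that these intervals did not overlap. Microglia gave 237 CPM (118–425, 7 of 10 cells) in the fresh and 136 CPM (16.5–491, 1 of 7 cells) in the MeOH-fixed sample. In nIPCs and neuroblasts no Ccnd1 was counted in 16 fresh cells, and 2 UMIs in 1 of 21 MeOH-fixed cells.

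Ccnd2 (chr6:127125162-127152193, minus strand), the D cyclin typical of neuronal progenitors, gave 33 UMIs in 16 fresh and 104 UMIs in 25 MeOH-fixed cells. The levels were 61.8 and 143 CPM, with a ratio of 2.31 (1.55–3.53). Its level in nIPCs and neuroblasts was 91.0 CPM (52.0–148, 7 of 16 cells) in the fresh sample and 715 CPM (549.6–915, 10 of 21 cells) in the MeOH-fixed sample. A single MeOH-fixed cell held 34 of these 63 UMIs. Leaving out the 3 cells gave 345 CPM (216–523, 7 of 18 cells), with 13 of the 22 UMIs in 1 further cell of 4922 UMIs. Without that cell as well the level was 153 CPM (70.0–291), and this interval overlapped that of the fresh cells. Immature neurons gave 52.0 CPM (16.9–121) in fresh and 103 CPM (69.8–146) in MeOH-fixed cells. Among 6 fresh endothelial cells 3 had Ccnd2, with 258 CPM (83.7–601), but none was counted in 8 MeOH-fixed endothelial cells. Ccnd3, the remaining D cyclin, was scarce, with 10 and 6 UMIs.

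Cdk4, the partner of D cyclins, was counted in all 16 fresh nIPCs and neuroblasts at 393 CPM (305–497) and in 11 of 21 MeOH-fixed ones at 375 CPM (258–526). The 3 cells held 21 of its UMIs, and without them the MeOH-fixed level was 188 CPM (97.3–329, 8 of 18 cells). In OPCs it gave 317.5 CPM (181–516) in fresh and 107 CPM (34.8–250.2) in MeOH-fixed cells. In all cells Cdk4 gave 200.3 CPM in the fresh and 117 CPM in the MeOH-fixed library, a ratio of 0.582 (0.433–0.781). Transcripts of the E cyclins were at the edge of detection, with 4 fresh and 6 MeOH-fixed UMIs for Ccne1 and 0 and 1 for Ccne2. Cdk2, their kinase, gave 5 UMIs in each library.

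Of the Cdk inhibitors, Cdkn1b (p27) was the one counted in most cells, with 79 UMIs in 32 fresh and 89 UMIs in 46 MeOH-fixed cells. In nIPCs and neuroblasts it gave 285 CPM (211–375, 14 of 16 cells) in fresh and 318 CPM (211–459, 11 of 21 cells) in MeOH-fixed cells, with 392 CPM (254–579) without the 3 cells. These intervals overlapped. In astrocytes and RGLs it stood at 73.0 CPM (31.5–144) in fresh and 260.2 CPM (161–398) in MeOH-fixed cells, and these intervals did not overlap. The share of cells with any Cdk inhibitor did not differ in this way, with 7 of 18 fresh (38.9%) and 11 of 29 MeOH-fixed cells (37.9%) of this identity. A MeOH-fixed cell held up to 5 UMIs of the group. This share is that of the whole group and not of Cdkn1b alone. Mature oligodendrocytes, which do not divide, had Cdkn1b in 10 of 13 MeOH-fixed cells at 154 CPM (84.4–259), and 0 UMIs in 2 fresh cells.

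Cdkn1a (p21), a target of p53 that is also induced by stress, gave 28 UMIs in 9 fresh cells and 6 UMIs in 4 MeOH-fixed cells, or 52.4 and 8.23 CPM. Its level was 6.37-fold higher in fresh cells, with a ratio of MeOH-fixed to fresh of 0.157 (0.0531–0.386). Endothelial cells held 14 of the fresh UMIs, in 3 of 6 cells and up to 9 in a cell, at 721 CPM (394–1210.5), against 1 UMI in 8 MeOH-fixed endothelial cells, 48.6 CPM (1.23–271). Fresh microglia held 9 UMIs in 2 of 10 cells, at 194 CPM, and none was counted in 7 MeOH-fixed microglia. Few cells thus carried the fresh signal. Cdkn1c (p57) gave 11 and 16 UMIs, of which 8 fresh UMIs were in nIPCs and neuroblasts and 6 MeOH-fixed UMIs in OPCs. Cdkn2c (p18), an Ink4 inhibitor of Cdk4 and Cdk6, gave 3 and 12 UMIs, and 10 of the MeOH-fixed UMIs were in 4 nIPCs and neuroblasts. All members by identity are shown in the heat map, and 6 of them with their intervals in the plot of levels by identity.

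**Figure D2:**
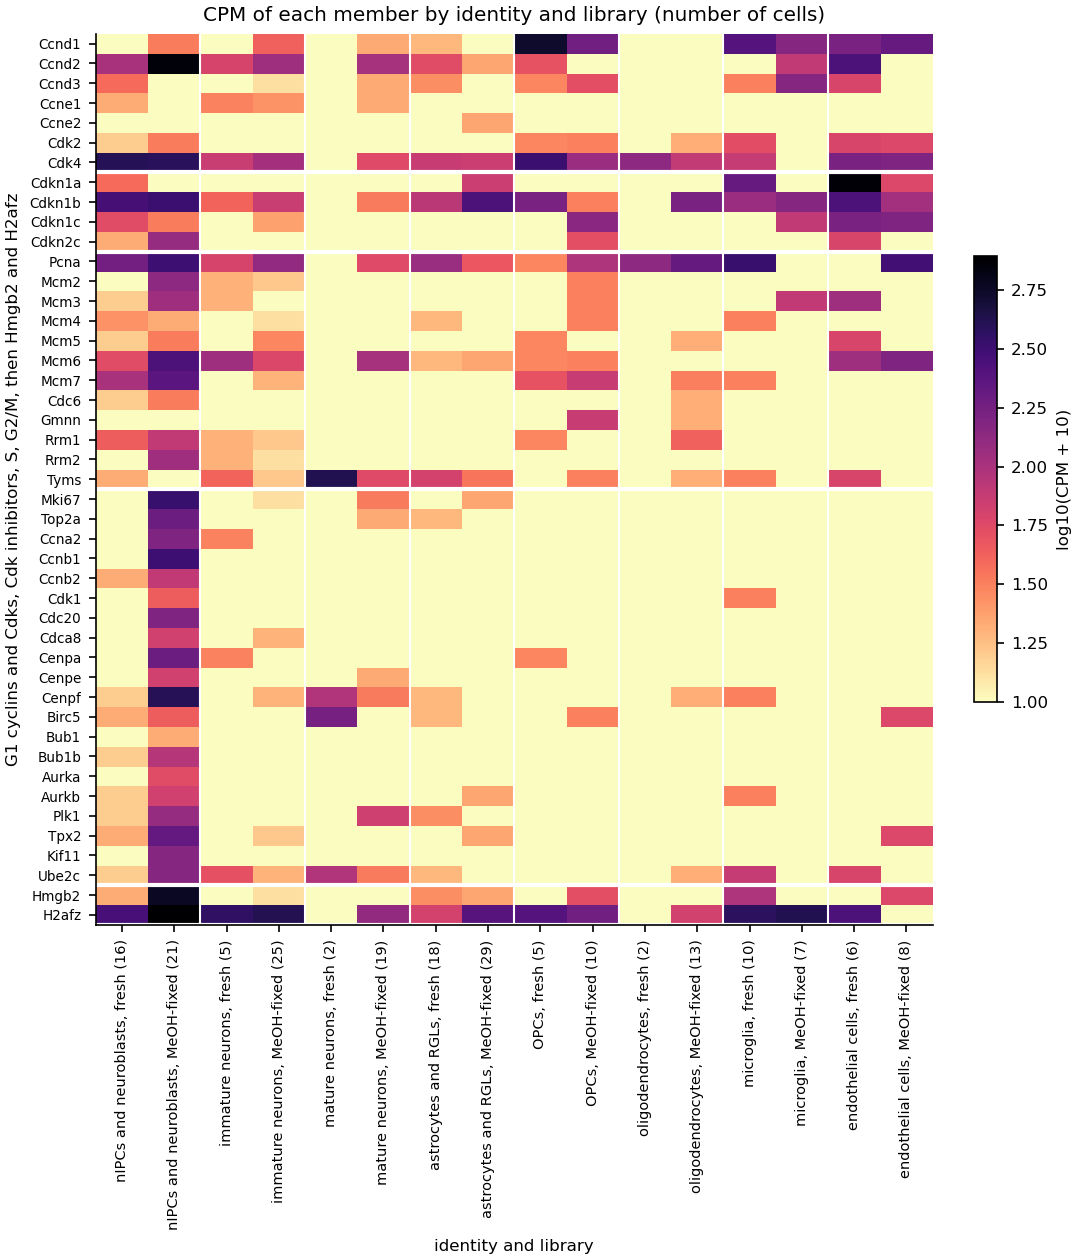
CPM of the 45 listed members (rows, by group) in the 8 identities of fresh and MeOH-fixed cells (columns, number of cells in brackets), as log10(CPM + 10), darker for higher levels. Most G2/M genes are dark only in MeOH-fixed nIPCs and neuroblasts, whereas Cdk4, Cdkn1b, Pcna and H2afz are counted in most identities.

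**Figure D3:**
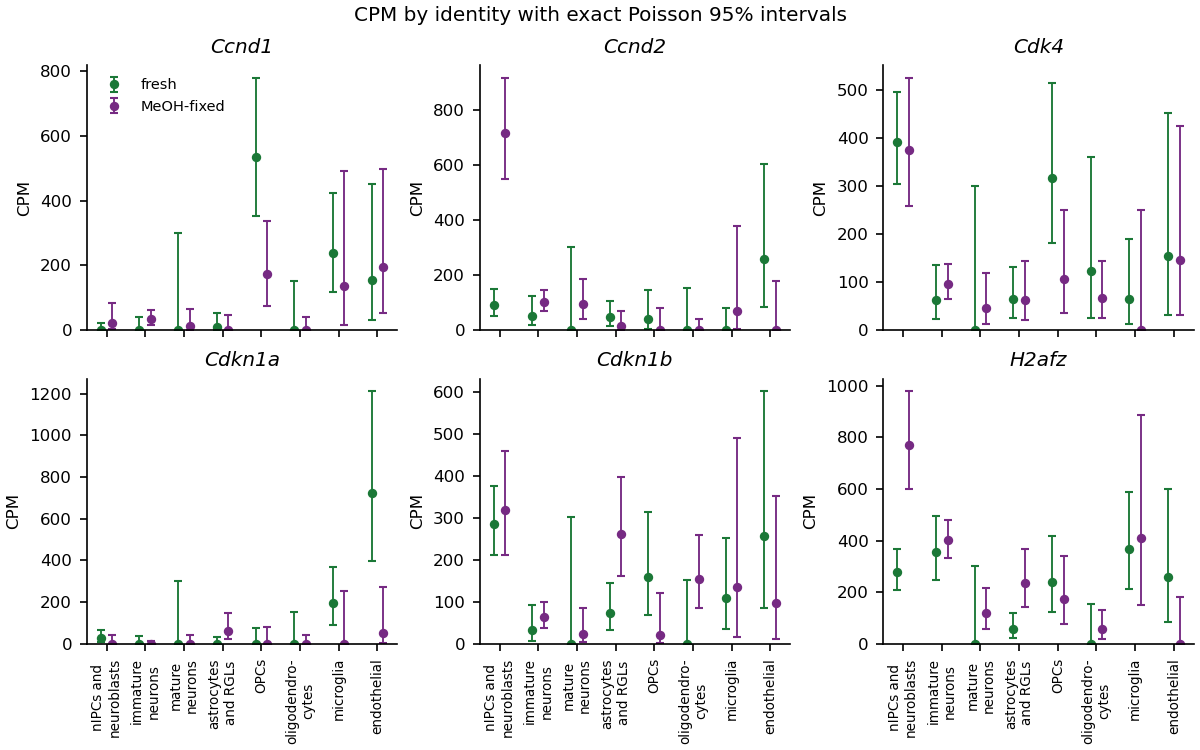
CPM (y axis) of 6 members in the 8 identities (x axis) for fresh and MeOH-fixed cells; points are summed UMIs over the cells of an identity and bars exact Poisson 95% intervals. Ccnd1 is highest in fresh OPCs at 536 CPM, Ccnd2 in MeOH-fixed nIPCs and neuroblasts at 715 CPM and Cdkn1a in fresh endothelial cells at 721 CPM.

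Among the S genes, Pcna, the sliding clamp of the replicative polymerases, was counted in cells of most identities. It gave 66 UMIs in 26 fresh and 98 UMIs in 41 MeOH-fixed cells, or 124 and 134 CPM, with a ratio of 1.09 (0.788–1.51). Pcna stood in nIPCs and neuroblasts at 171 CPM (115–244) in fresh and 307 CPM (202–446) in MeOH-fixed cells, of which 20 UMIs were in a single cell, and at 94.2 CPM (34.6–205) without the 3 cells. Other identities had levels in the same range. MeOH-fixed oligodendrocytes gave 198 CPM (118–314, 8 of 13 cells), fresh microglia 324 CPM (181–534, 6 of 10 cells) and MeOH-fixed immature neurons 119 CPM (83.5–165, 14 of 25 cells). Against all other cells of the library together, the ratio of Pcna in nIPCs and neuroblasts was 1.70 (1.01–2.84) for the fresh plate. For the MeOH-fixed plate it was 2.77 (1.71–4.37), and 0.850 (0.302–1.94) without the 3 cells.

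The genes of the Mcm2 to Mcm7 helicase, which unwinds DNA at the fork, together gave 54 UMIs in fresh and 116 UMIs in MeOH-fixed cells, or 101 CPM (76.0–132) and 159 CPM (131–191). The 3 cells held 46 of these UMIs, and without them the MeOH-fixed level was 99.3 CPM (77.4–126). Mcm6 was the most widely counted, with 41.2 and 70.0 CPM, and was found in immature neurons as well, at 104 CPM (49.9–191) in fresh and 49.7 CPM (27.8–82.0) in MeOH-fixed cells. Mcm2 differed most, with 1 UMI in fresh and 14 in MeOH-fixed cells, a ratio of 10.3 (1.56–434), and 9 of the 14 were in the 3 cells. For Mcm7 the levels were 35.6 and 38.4 CPM. Its UMIs were mostly in nIPCs and neuroblasts, with 16 of 19 in the fresh and 20 of 28 in the MeOH-fixed library. The ratios to the other cells were 10.9 (3.11–58.2) and 18.2 (7.67–47.7), and 11.3 (3.88–33.7) for MeOH-fixed cells without the 3 cells. Mcm3, Mcm4 and Mcm5 had 3 to 11 UMIs in each library.

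Rrm1 and Rrm2 code for the subunits of ribonucleotide reductase, which makes deoxyribonucleotides. Rrm1 gave 8 and 11 UMIs, 15.0 and 15.1 CPM, whereas Rrm2, the subunit that is limited to S phase, gave 1 and 10 UMIs, 9 of the latter in the 3 cells. Tyms, which makes thymidylate, gave 33.7 CPM in fresh and 13.7 CPM in MeOH-fixed cells (18 and 10 UMIs; ratio 0.407, 0.168–0.930), with 5 of the fresh UMIs in 1 of 2 cells given as mature neurons, in which none of the 5 listed markers of that identity was counted. Cdc6 and Gmnn, a loader and an inhibitor of replication licensing, had at most 4 UMIs in either library.

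G2/M transcripts were scarce in fresh cells. Of the 20 genes, 8 had no UMI in the fresh library, namely Mki67, Ccnb1, Cdc20, Cdca8, Cenpe, Bub1, Aurka and Kif11, and only Ube2c (11 UMIs), Birc5 (5 UMIs) and Cenpf (4 UMIs) had more than 3. In MeOH-fixed cells each of the 20 genes was counted. Mki67, the proliferation marker Ki-67, had 33 UMIs in 8 MeOH-fixed cells, a level 8.06-fold that of 3 counts in fresh cells. The exact interval of its ratio began at 6.19. For Ccnb1 (cyclin B1, 27 UMIs in 4 cells) the fold over 3 counts was 6.59 and the lower limit of the interval 5.00. For Cdc20 (13 UMIs in 3 cells) these were 3.17 and 2.23, and for Kif11 (12 UMIs in 3 cells) 2.93 and 2.04. All UMIs of Ccnb1, Cdc20 and Kif11 were in MeOH-fixed nIPCs and neuroblasts. Cenpf, a kinetochore protein, gave 7.49 CPM in fresh and 54.9 CPM in MeOH-fixed cells (4 and 40 UMIs; ratio 7.33, 2.65–28.2), and Tpx2, a spindle assembly factor, 3.74 and 30.2 CPM (2 and 22 UMIs; ratio 8.06, 1.98–70.7). The ratio was 12.5 (1.95–521) for Top2a, 3.91 (1.12–20.9) for Cenpa, 3.66 (1.04–19.7) for Plk1 and 4.76 (1.08–43.5) for Ccna2. For Ube2c and Birc5 the intervals of the ratio included 1, with ratios of 1.20 (0.536–2.81) and 0.733 (0.169–3.18), and 11 fresh UMIs of Ube2c were spread over 9 cells of 6 identities.

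The 3 cells held from 60% (Birc5) to 100% of the MeOH-fixed UMIs of each G2/M gene. Outside of them Mki67 had 5 UMIs, Cenpf 9, Ube2c 6, Plk1 5, Tpx2 4 and Cdca8 3, and no other G2/M gene had more than 2. The group stood in nIPCs and neuroblasts at 62.6 CPM (31.2–112, 11 UMIs in 6 of 16 cells) in the fresh sample and at 2713 CPM (2380.0–3080, 239 UMIs in 11 of 21 cells) in the MeOH-fixed sample. Without the 3 cells the MeOH-fixed level was 157 CPM (75.3–289, 10 UMIs in 8 of 18 cells), and its interval overlapped that of the fresh cells. In all other identities together, G2/M genes gave 72.5 CPM (47.4–106) in fresh and 51.5 CPM (35.4–72.3) in MeOH-fixed cells. A difference in G2/M transcripts between fresh nIPCs and neuroblasts and the other fresh cells was not detectable at this depth, with a ratio of 0.863 (0.385–1.81).

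The number of different S and G2/M genes counted in a cell set the 3 cells apart. They held 25, 23 and 22 of the 32 genes, the next cells held 7, and no cell held 8 to 20. All 3 were MeOH-fixed nIPCs and neuroblasts. S and G2/M genes made up 1.11%, 1.14% and 1.84% of their UMIs, against a median of 0.0205% and a maximum of 0.319% in the other cells. After each cell was thinned to 800 UMIs they still held 7, 6 and 9 of the genes. Because the cells were picked by this number, these values describe them. No fresh cell was of this kind, which in 16 fresh nIPCs and neuroblasts allows a share of up to 18.8% by 3 counts of the total and of up to 20.6% by the exact interval, whereas the share in the MeOH-fixed sample was 3 of 21 cells (14.3%, exact interval 3.05–36.3%).

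**Figure D4:**
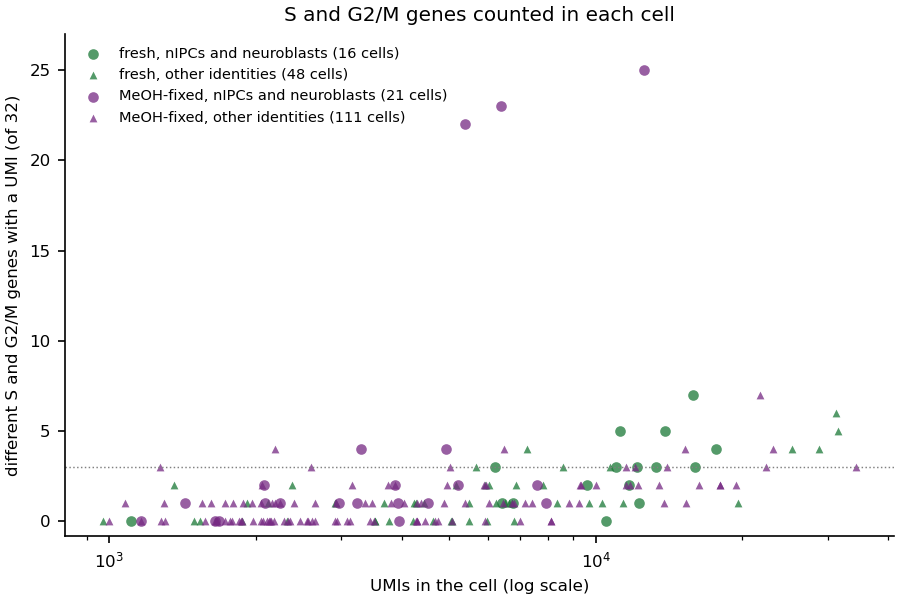
Number of different S and G2/M genes with a UMI (y axis, of 32) against the UMIs of the cell (x axis, log scale) for 64 fresh and 132 MeOH-fixed cells, with nIPCs and neuroblasts as circles and other identities as triangles; the dotted line marks 3 genes. The 3 cells at 22 to 25 genes are MeOH-fixed circles, and all other cells lie at 7 or fewer.

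The cell with 25 genes (12604 UMIs, 22.7% mitochondrial counts) held 7 S and 18 G2/M genes. Its highest counts were those of late genes, with 22 UMIs of Cenpf, 16 of Ccnb1, 14 of Mki67, 9 of Cenpa and 8 of Tpx2, next to 8 of Mcm6 and none of Pcna. It also held 34 UMIs of Ccnd2, 29 of H2afz and 23 of Hmgb2. Of the cell identity markers it had 10 UMIs of Hopx, 8 of Sox2, 6 of Sox9, 4 of Sox11 and 1 of Eomes, and none of Neurod1 or Dcx, so that markers shared with RGLs were counted in it.

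The cell with 23 genes (6402 UMIs, 17.4% mitochondrial counts) held 4 S and 19 G2/M genes, with 5 and 68 UMIs. Cenpf (9 UMIs), Ccnb1 (8), Cenpa (6), Kif11 (6), Cdc20 (5) and Ube2c (5) led, and only 1 UMI of Pcna was counted. It had 15 UMIs of Sox11, 7 of Neurod1, 2 of Eomes and 2 of Dcx, markers of the neuronal lineage, and 1 UMI of Ccnd2, 8 of Cdk4 and 6 of Cdkn2c. The cell with 22 genes (5376 UMIs, 7.63% mitochondrial counts) differed in that S genes prevailed, with 54 UMIs of 9 S genes and 45 UMIs of 13 G2/M genes. Pcna (20 UMIs), Rrm2 (7), Mcm6 (6) and Mcm7 (6) were counted together with Top2a (13), Mki67 (10) and Tpx2 (7), while Cenpf, Cdc20 and Kif11 were not counted. It held 14 UMIs of Sox11, 8 of Neurod1 and 4 of Eomes. No UMI of Reln, Gad1 or of the microglial and endothelial markers was counted in the 3 cells.

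**Figure D5:**
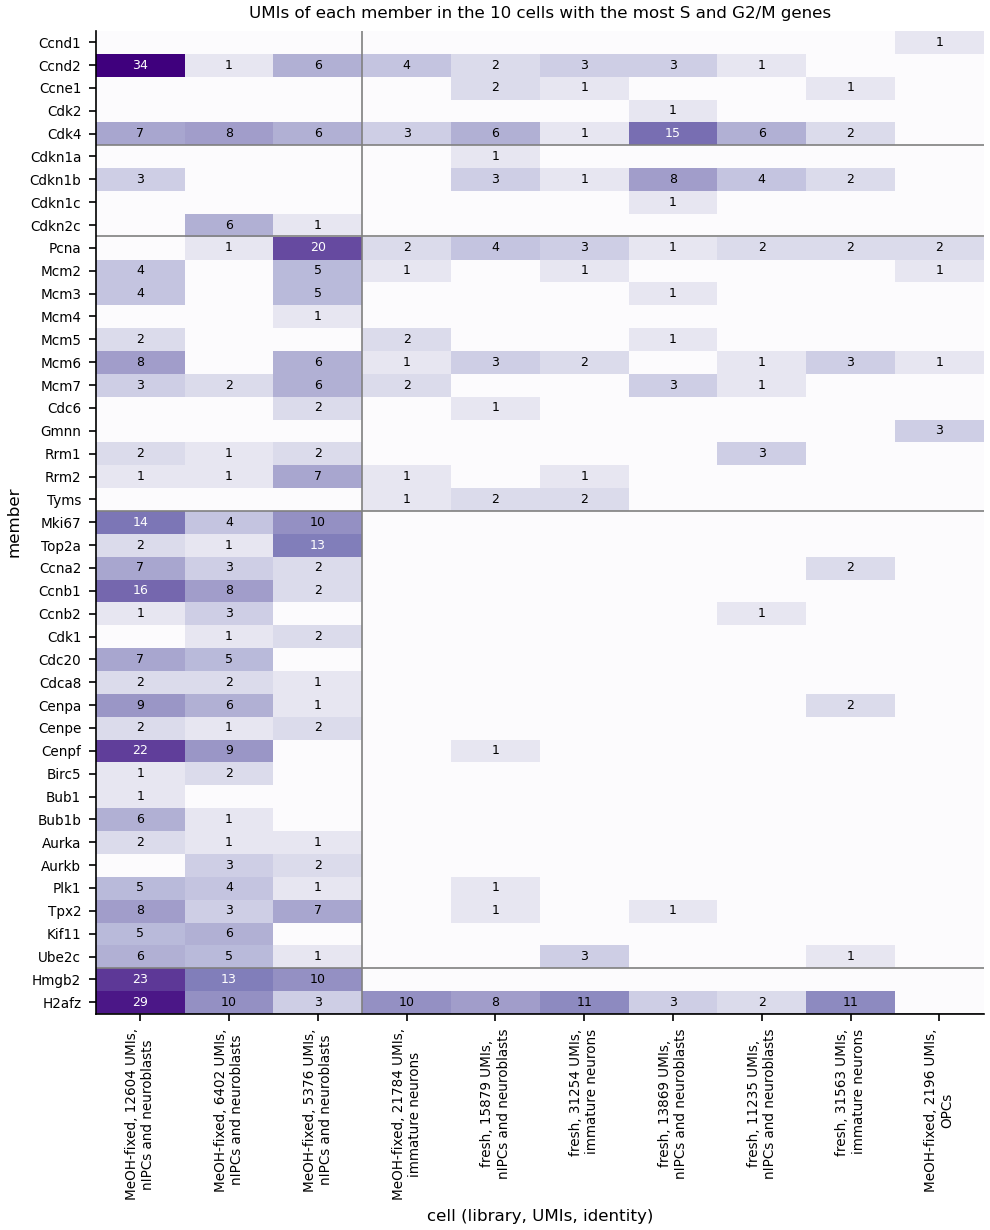
UMIs of each member (rows, by group) in the 10 cells with the most S and G2/M genes (columns, with library, UMIs and identity); empty fields are 0 and darker fields hold more UMIs. The 3 cells to the left hold most G2/M genes, and in the 7 other cells each G2/M gene has at most 3 UMIs.

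Other cell cycle genes, from lists that were not used to pick the cells, were also counted in them. The lists were made with earlier results of these data known, so that the numbers below describe the cells. Of 51 listed G2/M genes outside of the members, the 3 cells held 38, 36 and 28, whereas the other MeOH-fixed nIPCs and neuroblasts held a median of 3 (1 to 7) and the fresh ones a median of 6 (3 to 9). In MeOH-fixed nIPCs and neuroblasts all UMIs of Spc25 (19) and Nuf2 (11), of the kinetochore, of Cks2 (24), a subunit that binds Cdk1, and of Prc1 (14), of the spindle midzone, were in the 3 cells; these genes were chosen after their values were seen. Of 34 other S genes they held 14, 2 and 16, against medians of 2 (0 to 8) in the other MeOH-fixed and 4 (1 to 8) in the fresh cells. The low number was that of the cell with 23 genes. Of 48 regulators of G1 and of the exit from the cycle they held 18, 7 and 16, which is within the range of 2 to 26 in fresh nIPCs and neuroblasts.

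Summed over all cells, the other S genes gave 425 CPM in fresh and 464 CPM in MeOH-fixed cells (ratio 1.09, 0.919–1.30), the other G2/M genes 1964 and 2004 CPM (ratio 1.02, 0.942–1.11), and the regulators 2748 and 2782 CPM (ratio 1.01, 0.946–1.08). Without the 3 cells the other G2/M genes were lower in MeOH-fixed cells, with a ratio of 0.736 (0.674–0.803). Most UMIs of that list were of Stmn1, Tuba1b and Tubb4b, which code for a tubulin-binding protein and for tubulins and are used by neurons outside of mitosis. Stmn1 gave 983 CPM in fresh and 586 CPM in MeOH-fixed cells, and was counted in all 16 fresh and in 20 of 21 MeOH-fixed nIPCs and neuroblasts. Tuba1b gave 376 and 410.1 CPM and Tubb4b 110.5 and 177 CPM. Of the other S genes Rfc1, a clamp loader subunit, gave 76.8 CPM in fresh and 64.5 CPM in MeOH-fixed cells. Rfc2 gave 22.5 and 28.8 CPM, and Dut, a dUTPase, 11.2 and 37.0 CPM. Of 11 other S genes with 20 UMIs, Dut and Rpa2 were at least 2-fold higher in MeOH-fixed cells. Of 16 other G2/M genes Spc25 and Cks2 were higher and 0 lower, and of 36 regulators 3 were higher and 8 lower. Among all 8804 genes with as many UMIs, 10.6% were higher and 9% lower. All UMIs of Spc25 and Cks2 in MeOH-fixed nIPCs and neuroblasts were in the 3 cells, so that these counts support nothing. Gins1 was counted in nIPCs and neuroblasts in 6 of 16 fresh and 4 of 21 MeOH-fixed cells, Rfc1 in 4 and 5, and Dnmt1 in 4 and 5. Among the regulators, Cdk5r1 (296 and 332 CPM), Skp1a (176 and 296 CPM) and Ccni (277 and 232 CPM) were highest, and they were counted in 14 or 15 of the 16 fresh and 14 or 15 of the 21 MeOH-fixed nIPCs and neuroblasts.

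Several S or G2/M genes, that is at least 3 of 32, were counted in 35 of 196 cells. These were 17 of 64 fresh cells (26.6%, exact interval 16.3–39.1%) and 18 of 132 MeOH-fixed cells (13.6%, 8.29–20.7%). Among nIPCs and neuroblasts they were 9 of 16 fresh cells (56.3%, 29.9–80.2%) and 5 of 21 MeOH-fixed cells (23.8%, 8.22–47.2%), with median depths of 11468.5 and 3873 UMIs. Immature neurons, which have left the cycle, reached 3 of 5 and 8 of 25 cells (32%, 14.9–53.5%), with median depths of 28791 and 11563 UMIs. The shares in nIPCs and neuroblasts thus did not exceed those in immature neurons beyond counting error.

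Depth moved with this number, and its part was not tested beyond thinning. The 32 cells with at least 3 genes besides the 3 cells had a median of 12111 UMIs, and cells with fewer genes a median of 3757 UMIs. Over the 193 cells without the 3 cells, the number of genes and the UMIs of a cell had a Spearman correlation of 0.577, in which both share the cell's own total. Of the 35 cells, 29 had Pcna, and 11 had S genes only. After thinning to 800 UMIs, 0 of 64 fresh cells and 5 of 132 MeOH-fixed cells (3.79%) held at least 3 genes, namely the 3 cells, 1 OPC and 1 endothelial cell. The OPC (2196 UMIs) held 3 UMIs of Gmnn, 2 of Pcna, and 1 each of Mcm2 and Mcm6, and no G2/M gene. When a gene had to have 2 UMIs to be counted, 9 cells held at least 3 genes. Outside of the 3 cells the highest numbers were 7 genes in a MeOH-fixed immature neuron (21784 UMIs), which were all S genes, and 7 in a fresh cell of the nIPCs and neuroblasts (15879 UMIs), with 4 S and 3 G2/M genes. No S or G2/M gene was counted in 68 of the 196 cells.

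Set against all other cells of the same library, nIPCs and neuroblasts had higher G1 cyclins and Cdks as a sum in both libraries, with log2 ratios of 0.81 in the fresh and 2.44 in the MeOH-fixed sample, and 1.51 without the 3 cells. In the fresh sample Cdk4 held 69 of the 93 UMIs in nIPCs and neuroblasts, and the D cyclins stood at 119 CPM there against 179 CPM in the other cells, a ratio of 0.669 (0.388–1.11). In the MeOH-fixed sample the ratio of the D cyclins was 6.57 (4.62–9.32), and 3.35 (2.02–5.39) without the 3 cells. For the Cdk inhibitors the log2 ratios were 1.24 and 1.81. Of 8 members with 20 UMIs in the fresh library, Cdk4 and Cdkn1b were at least 2-fold higher in nIPCs and neuroblasts (19.5% of all genes) and Ccnd1 and Cdkn1a 2-fold lower (26% of all genes). In the MeOH-fixed library 12 of 13 members were 2-fold higher (14.4% of all genes) and 0 lower (30.9% of all genes). Of these, Mcm7, Mki67, Ccnb1, Cenpf, Tpx2 and Hmgb2 had at most 8 UMIs in the other cells and reached 20 UMIs only through the nIPCs and neuroblasts, so that they had to be higher. Without the 3 cells Ccnd2, Cdk4, Cdkn1b and Mcm6 remained of 7 members (16% of all genes), with 0 lower (32% of all genes). Cdk4 and Cdkn1b, a kinase of G1 and an inhibitor, passed 2-fold in nIPCs and neuroblasts of both libraries, also without the 3 cells. There the ratio of Cdk4 was 2.32 (1.13–4.41), so that 2-fold was not exceeded beyond counting error. The share of members called in the fresh library was near that of all genes, and no trait of the members is drawn from it.

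H2afz was the most frequent member, with 230.3 CPM in 37 fresh and 325 CPM in 64 MeOH-fixed cells (ratio 1.41, 1.13–1.77), with a log2 ratio of -0.10 for mean UMIs per cell. It was counted in immature neurons at 354 CPM (245–494) in fresh and 401 CPM (333–479) in MeOH-fixed cells and thus was not limited to nIPCs and neuroblasts, where it gave 279 CPM (206–369) and 772 CPM (599–979), and 408 CPM (267–598) without the 3 cells. Hmgb2 in contrast had 46 of 55 MeOH-fixed UMIs in the 3 cells, and its levels were 15.0 CPM in fresh and 75.4 CPM in MeOH-fixed cells (ratio 5.04, 2.39–12.2).

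The nIPCs and neuroblasts of the 2 libraries differed in their markers. All 10 nIPC and neuroblast markers were counted in both, at 9685 CPM in fresh and 5438 CPM in MeOH-fixed cells. Neurod1 was counted in 16 of 16 fresh and 14 of 21 MeOH-fixed cells, and Dcx in 14 and 11. Reln, a marker of Cajal-Retzius cells and some interneurons, had 26 UMIs in 1 fresh cell and 164 UMIs in 4 MeOH-fixed cells, with 20 to 60 UMIs each, and these cells held 1 or 2 S or G2/M genes. Of 8 astrocyte and RGL markers 5 were counted in fresh and 7 in MeOH-fixed nIPCs and neuroblasts, at 233 and 647 CPM, where the cell with 25 genes held 26 of the 57 MeOH-fixed UMIs and 411 CPM remained without it, and of 5 OPC markers 2 and 4, at 28.5 and 227 CPM. The 4 oligodendrocyte markers gave 159 and 284 CPM. The 5 endothelial markers were at 0 and 22.7 CPM. The part of these differences in the levels of the cell cycle genes was not tested.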

How the data were processed

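DG cells were sorted into plates and sequenced by SORT-seq, with libraries made by the CEL-Seq2 protocol. According to the methods and the submitters' processing notes, the authors mapped reads with STAR to GRCm38, discarded reads with several equally good positions, removed duplicates by UMI and adjusted the numbers for UMI saturation. The deposited gene tables therefore hold expected counts, which exceeded whole UMIs by 1.15% in all. Metadata deposited by the authors give the counts of genes per cell, the percent of mitochondrial counts, log10 totals, the ratio of transcripts to genes, the condition and the cell identity. The authors filtered barcodes and named identities in R 4.2.0 with Seurat 4.1.0. Doublets were gated out in the sort by the authors, and none were called here.

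Whole UMIs were recovered by inverting the saturation formula for 4096 possible UMIs, with a largest distance of 3.64e-12 from a whole number. UMIs were summed over cells and given as CPM with exact 95% Poisson intervals, ratios with exact conditional binomial intervals, and shares of cells with exact Clopper-Pearson intervals. PCR duplicates had been removed, and all intervals cover counting error only. Levels were compared as 2-fold differences among genes with at least 20 UMIs, and no test was run because each condition is 1 library. A count of 0 was set to 3 UMIs to give a fold, which leaves out the counting error of the other library. Several S or G2/M genes means at least 3 of 32 with a UMI. Cells were thinned to 800 UMIs with seed 11, and no cell was shallower. The 3 cells left out in repeats were those with more than 20 S or G2/M genes, a limit set after seeing the data. Every listed member is named, and of the other cell cycle lists the 3 genes with the highest CPM and the 3 found in most nIPCs and neuroblasts, with exceptions stated. A few genes of these lists and of the identity markers are not reported here. Promoter motifs were searched in RefSeq sequences. Members, lists and motifs were chosen with earlier results of these data known. The calculations were tested on simulated data. Python 3.11.15 was used with scipy 1.17.1, numpy 2.4.6, matplotlib 3.10.9 and pandas 2.3.3.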

Additional observations from a re-analysis of the deposited data

Results flagged for a closer look

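G1 cyclins and Cdks moved in opposite directions between the libraries in nIPCs and neuroblasts, with a log2 ratio of MeOH-fixed over fresh of 1.10, and in OPCs, with -1.44. In nIPCs and neuroblasts the log2 ratio was 0.17 without the 3 cells, with levels of 529 CPM in fresh and 596 CPM in MeOH-fixed cells whose intervals overlapped. The Cdk inhibitors did so in astrocytes and RGLs, with 2.14, and in endothelial cells, with -2.02. These differences between identities were not tested, since each is 1 library against 1 library.

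Barcodes that failed the filter of the authors, 320 fresh and 252 MeOH-fixed, enter no comparison other than the share of cells over all barcodes, and held transcripts of every group above the limit that a count of 0 allows. In the fresh plate they gave 185 CPM for G1 cyclins and Cdks, 121 CPM for Cdk inhibitors, 136 CPM for S genes, 57.1 CPM for G2/M genes and 128 CPM for Hmgb2 and H2afz. In the MeOH-fixed plate the values were 167, 95.6, 215, 203 and 263 CPM in the same order of groups. For G2/M genes the intervals did not overlap, with 24.6–112 CPM (8 UMIs) in the fresh and 118–325 CPM (17 UMIs) in the MeOH-fixed plate. Those of the other groups overlapped. This difference lies outside of the 3 cells, and its cause was not tested. A fresh barcode with 44514 UMIs held 7 S or G2/M genes, and a MeOH-fixed barcode with 2238 UMIs held 3. Control wells that were left empty were not set apart from the barcodes that failed the filter.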

How the results depend on the processing

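All values here are log2 ratios of MeOH-fixed over fresh unless stated, and not every alternative that was run is printed. Values from expected counts as deposited, from totals without mitochondrially encoded genes, and from cells below a limit of mitochondrial counts are not printed. No paired analysis was possible because each condition is 1 library and no test was made. The alternatives that leave out the 3 cells or the cells with Reln, ask for more than 20 genes, use all barcodes, or leave out the cell with the most UMIs on top of the 3 cells were chosen after seeing the data. The cause of a shift was not tested where the alternative does not show it by its construction, and depth limits most members, of which 17 of 45 reached 20 UMIs.

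Without the 3 cells, values turned for Rrm2 (-0.40), Top2a (-0.40), Ccna2 (-1.40) and Hmgb2 (-0.23), for S genes from 0.32 to -0.21 and for G2/M genes from 2.43 to -0.18. G1 cyclins and Cdks moved from -0.23 to -0.62, Hmgb2 and H2afz from 0.71 to 0.24, other S genes from 0.13 to -0.13 and other G2/M genes from 0.03 to -0.44. In nIPCs and neuroblasts, G1 cyclins and Cdks moved from 1.10 to 0.17, S genes from 1.69 to 0.13, G2/M genes from 5.44 to 1.33, and Hmgb2 and H2afz from 2.21 to 0.70. Leaving out the cells with Reln moved none of the groups in nIPCs and neuroblasts.

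With mean UMIs per cell in place of CPM, H2afz turned to -0.10 and S genes to -0.28, and values were -0.83 for G1 cyclins and Cdks, -1.02 for Cdk inhibitors, 1.83 for G2/M genes, 0.11 for Hmgb2 and H2afz, -0.47 for other S genes, -0.57 for other G2/M genes and -0.58 for the regulators. Per spike-in count, S genes turned to -0.16, and values were -0.71 for G1 cyclins and Cdks, -0.90 for Cdk inhibitors and 0.23 for Hmgb2 and H2afz. Without the cell with the most UMIs, S genes turned to -0.018 and G2/M genes gave 1.65, and in nIPCs and neuroblasts G1 cyclins and Cdks gave 0.56, S genes 0.81, and Hmgb2 and H2afz 1.59. Without the gene with the most UMIs, G1 cyclins and Cdks gave 0.22, Hmgb2 and H2afz 2.33 and other G2/M genes 0.53, and in nIPCs and neuroblasts G1 cyclins and Cdks gave 2.48 and Hmgb2 and H2afz 5.64. With equal weight for each identity, other G2/M genes gave 0.33 and the regulators 0.31. As means of each cell's own CPM, G1 cyclins and Cdks gave 0.64 in nIPCs and neuroblasts, and Hmgb2 and H2afz 1.65.

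The log2 ratio of nIPCs and neuroblasts over other MeOH-fixed cells was 2.44 for G1 cyclins and Cdks, 1.90 without the top cell and 1.51 without the 3 cells. For S genes it was 2.49, with 2.08 from each cell's own CPM, 1.61 without the top cell and 0.94 without the 3 cells. For G2/M genes it was 5.72, with 4.20, 4.98 and 1.61 in that order, and for Hmgb2 and H2afz 2.30, with 1.88, 1.69 and 0.79.

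Cells with at least 3 S or G2/M genes were 26.6% of fresh cells. This share was 40.6% for 2 genes, 7.81% for 5 genes, 0% after thinning, 4.69% when a gene needed 2 UMIs, 9.38% for 1 S and 2 G2/M genes, 0% for more than 20 genes and 4.69% over all barcodes. Among fresh nIPCs and neuroblasts it was 56.3%, and 18.8% for 5 genes, 0% after thinning, 6.25% at 2 UMIs, 12.5% for 1 S and 2 G2/M genes and 0% for more than 20 genes. Among MeOH-fixed cells it was 13.6%, and 30.3% for 2 genes, 3.03% for 5 genes, 3.79% after thinning, 4.55% at 2 UMIs and for 1 S and 2 G2/M genes, 26.5% with Hmgb2 and H2afz, 6.06% without Pcna, Rrm1 and Gmnn, 2.27% for more than 20 genes and 4.95% over all barcodes. The 6 members 2-fold higher became 17 of 33 at 10 UMIs (12.2% of all genes), 28 of 45 with no filter (17.9%) and 0 without the 3 cells, and the 3 lower became 5 with no filter (21.1%). Many of those added are G2/M genes that reached the filter only through the MeOH-fixed cells, such as Cdc20, Kif11 and Top2a. Of the 132 values of groups, lists, shares and counts under the other alternatives, 80 stayed within counting error or 1.5 times the count.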
